A study of Mus musculus with 12 samples.

Results

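The genes described here are 10 heat shock proteins and chaperones, picked by their symbols from the 24351 gene symbols in the deposited tables: Hspa1a, Hspa1b, Hspa8, Hspa5, Hsp90aa1, Hsp90ab1, Hsph1, Dnajb1, Hspe1 and Hspd1. The choice was made with earlier results of these data known, so counts of members beside the share of all genes are descriptive. RNA was sequenced from CD4 T cells sorted out of the spleens of C57BL/6 mice. CXCR5+PD-1+ cells are T follicular helper (TFH) cells, which help B cells in germinal centres, and CXCR5-PD-1- cells are called non-TFH cells here. Both genotypes were homozygous for a floxed allele of Ets1, which encodes a transcription factor of T and B cells. WT mice were Ets1 flox/flox without Cre, and KO mice were CD4-cre Ets1 flox/flox, in which Cre is driven by Cd4 regulatory sequences and acts in T cells from thymic development onward. No age or treatment is given in the sources used here. Both cell types of both genotypes made 4 groups with 3 libraries each. The labels do not say whether same-numbered TFH and non-TFH libraries came from the same mice, and the main fit did not pair them. Nothing in the labels ties the 3 libraries of a group to separate mice, so the p-values cover the spread among these samples alone, and that spread may be technical.

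Chaperones bind unfolded or partly folded proteins and release them in cycles of ATP binding and hydrolysis. Under heat or other protein stress, heat shock factor 1 (HSF1) binds repeats of GAA and TTC, called heat shock elements, upstream of inducible chaperone genes. Misfolded protein in the endoplasmic reticulum (ER) instead starts the unfolded protein response, which acts through ER stress elements. In T cells, activation and growth also raise the need for chaperones, and HSP90 and HSP70 stabilise kinases and other signalling proteins.

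The inducible HSP70 genes lie next to each other, and their upstream sequences are shown first because both genes had to be measured together. Hspa1b is at chr17:34956429-34959238 and Hspa1a at chr17:34969359-34972156, with 10120 bases between them (RefSeq annotation, build GRCm38.p6, which is the assembly called mm10). RefSeq promoters were available for 7 of the 10 genes. Hspa8, Hsp90aa1 and Hsp90ab1 had no entry. The 250 bases upstream of both starts, at chr17:34972157-34972406 and chr17:34959239-34959488 on the minus strand, differed at 3 of 250 positions. Capitals mark a match to GAANNTTC, a pair of heat shock element units, which starts 104 bases upstream of the start in both.
Hspa1a: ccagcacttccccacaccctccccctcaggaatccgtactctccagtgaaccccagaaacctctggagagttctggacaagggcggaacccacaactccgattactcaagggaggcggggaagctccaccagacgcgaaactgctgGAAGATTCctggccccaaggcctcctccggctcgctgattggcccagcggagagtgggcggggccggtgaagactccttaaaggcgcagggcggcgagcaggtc
Hspa1b: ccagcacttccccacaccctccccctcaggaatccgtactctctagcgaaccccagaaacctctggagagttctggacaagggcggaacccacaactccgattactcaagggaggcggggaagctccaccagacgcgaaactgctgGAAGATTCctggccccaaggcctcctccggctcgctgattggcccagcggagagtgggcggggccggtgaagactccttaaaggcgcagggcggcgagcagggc

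The mitochondrial chaperonin genes Hspd1 (HSP60) and Hspe1 (HSP10, its co-chaperonin lid) are a head-to-head pair on chromosome 1. Hspd1 is at chr1:55077833-55088243 on the minus strand and Hspe1 at chr1:55088148-55091317 on the plus strand, so that the annotated genes overlap by 96 bases. The stretch chr1:55088053-55088082 lies upstream of the Hspe1 start and between the 2 annotated Hspd1 starts. It is shown on the plus strand because it falls in promoter windows of both genes, and capitals mark a run of overlapping TTCNNGAA and GAANNTTC matches. The Hsph1 stretch (chr5:149636351-149636380, minus strand) is shown with its TTCNNGAA match in capitals. The Hspa5 stretch (chr2:34772020-34772048, plus strand) is shown because it held the ER stress element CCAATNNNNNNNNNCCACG and no heat shock pair.
Hspe1: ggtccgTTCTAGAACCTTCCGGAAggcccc
Hsph1: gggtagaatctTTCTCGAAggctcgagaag
Hspa5: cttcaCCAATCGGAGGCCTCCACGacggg
Each motif was searched on both strands of the 300 bases from 250 before to 50 after each start. GAANNTTC or TTCNNGAA was found in 5 of the 7 genes with a promoter (Hspa1a, Hspa1b, Hsph1, Hspe1 and Hspd1) and in 15.1% of all 32851 RefSeq promoters of that length. A run of overlapping pairs, GAANNTTCNNGAA or its reverse complement TTCNNGAANNTTC, was in 3 of the 7 (Hsph1, Hspe1 and Hspd1) and in 0.603% of all promoters. In Hsph1 that run lies downstream of the start and is outside the printed stretch. The ER stress element was in Hspa5 alone among the 7 and in 0.119% of all promoters. Counted by gene, as the members are, the shares of pair, run and ER stress element were 17%, 0.662% and 0.137% of 27025 genes. The Dnajb1 promoter held none of these letters. A match describes the letters of the window and is not a measured binding site.

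Levels are FPKM (fragments mapped to a gene per kilobase of transcript, corrected for library size), scaled between libraries by the median ratio. The deposited tables hold no counts. An estimate from their confidence bounds put library depth between 11.9 and 15.5 M fragments. Hspa1a and Hspa1b shared a single entry in 5 of the 6 TFH libraries, all but KO TFH replicate 2, and had separate entries in every non-TFH library. Their values were therefore added to 1 joint value in every library, and the 10 genes gave 9 values. The form of the entry thus went with the cell type, and its part in the joint values was not tested. All 9 passed the filter on low values (1 FPKM or more, 3 libraries or more) and were tested among 11103 genes. The sorting markers followed the labels. Cxcr5 was at 126 to 253 in TFH and 0 to 12.2 in non-TFH libraries. Pdcd1, which encodes PD-1, was at 317 to 708 in TFH and at 1.40 to 1.65 in non-TFH libraries, and Cd3e and Cd4 were present in all 12. Ets1 itself, summed over all its exons, ranged from 404 to 413 (WT) and 381 to 415 (KO) in non-TFH libraries. In TFH libraries it ranged from 171 to 216 (WT) and 224 to 271 (KO). Ets1 was called higher in KO than in WT TFH cells (log2 change 0.37) and was not called by genotype in non-TFH cells (-0.03). The value covers all exons, and the labels do not say which are floxed, so it does not check the deletion. In bulk RNA, a larger share of cells with a gene's RNA and more of that RNA per cell cannot be told apart.

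The constitutive HSP70 Hspa8 was the most abundant of the 10 genes per length in all 12 libraries. Its WT non-TFH levels were 703, 940 and 669, and its KO TFH levels were 1721, 1661 and 1817. The constitutive cytosolic HSP90, Hsp90ab1, came next in every library, between 496 and 879. The joint value of Hspa1a and Hspa1b was the lowest of the 9 in WT non-TFH libraries, at 3.29, 2.37 and 1.79. It was also the most variable of the 9. Its within-group SD was 0.67 on the log2 scale, at percentile 94.5 of the tested genes, against 0.14 for both Hspd1 (percentile 17.5) and Hspe1 (percentile 19.6).

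**Figure D1:**
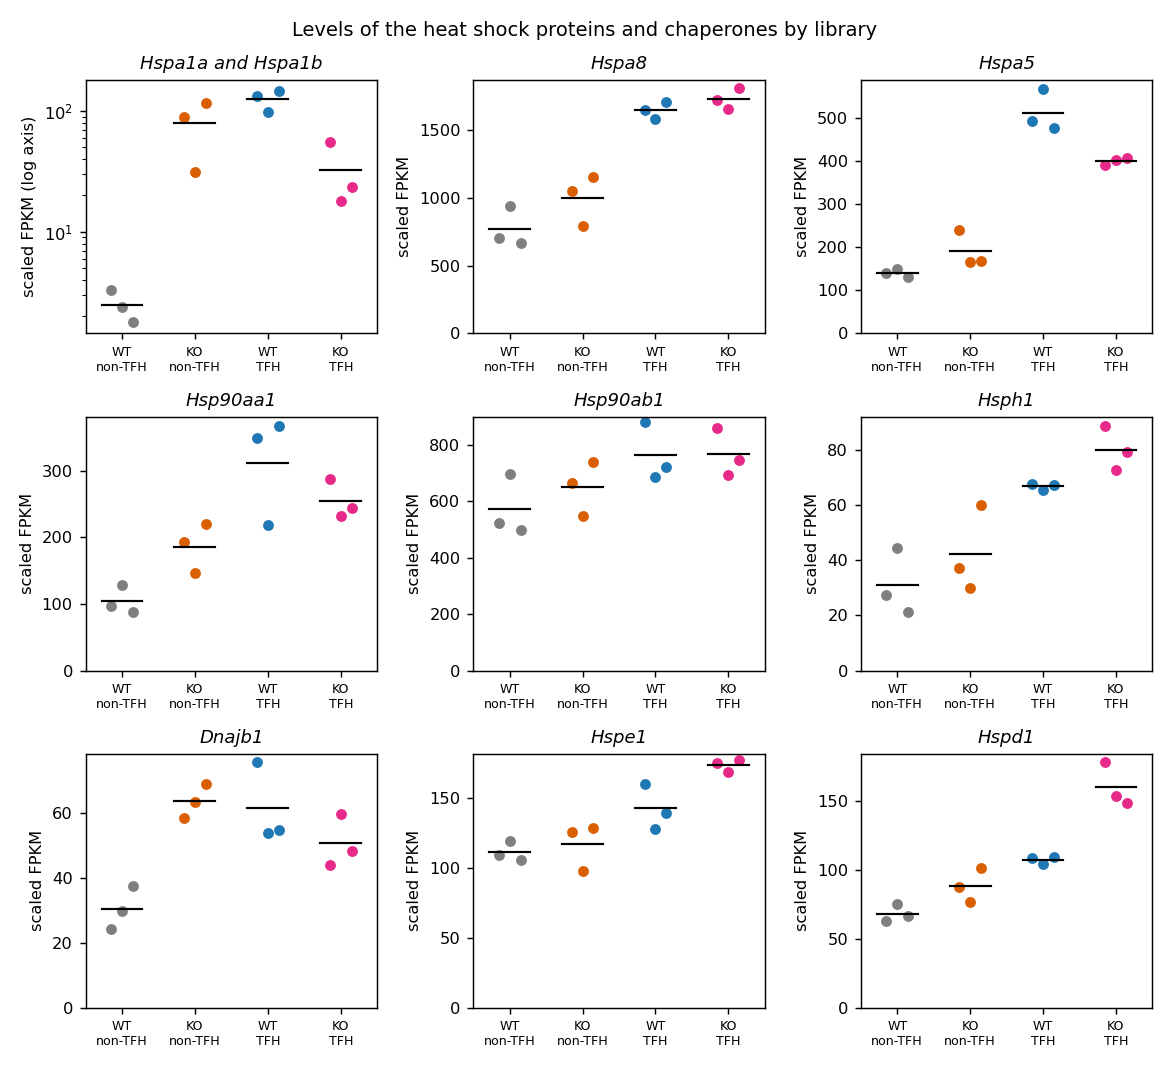
Scaled FPKM of the 9 measured values in each of the 12 libraries, by group (points: libraries; bars: group means; the axis for Hspa1a and Hspa1b is logarithmic, the others start at 0). Hspa1a and Hspa1b lie between 1.79 and 3.29 in WT non-TFH cells and above 18 in every other library.

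In cells negative for CXCR5 and PD-1, 5 of the 9 values were higher in KO than in WT mice and none was lower. The inducible HSP70 pair rose from a mean of 2.49 ± 0.754 to 79.3 ± 43.5 scaled FPKM (SD, n = 3 each), a 31.9-fold difference of the means. Its HSP40 partner Dnajb1 rose 2.08-fold and the inducible HSP90, Hsp90aa1, rose 1.79-fold, while Hspa8 and Hsp90ab1 did not pass the test. The other two were Hspa5 and Hspd1. Among all 11103 tested genes, 20.4% were called in this comparison, 11.8% higher and 8.57% lower. The same 5 values were higher in every KO than in every WT library, where 28.9% of all genes with values in both groups were separated upward and 22.8% downward. The median log2 change was 0.42 over the 9 values and 0.03 over all tested genes.

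Hspa1a and Hspa1b encode nearly identical inducible HSP70 proteins, which T cells hold at low levels when unstressed. The joint KO non-TFH levels were 89.9, 31.5 and 117, against the WT levels of 1.79 to 3.29 given above. The groups did not overlap, and the lowest KO library was far above the highest WT library. The log2 change of FPKM + 1 was 4.36 (SE 0.50, limma adjusted p = 0.000167). In non-TFH libraries both genes had entries of their own, and there the deposited FPKM of Hspa1a were 0.813, 0.701 and 0.514 (WT) and 34.4, 10.7 and 39.9 (KO). Those of Hspa1b were 2.04, 1.32 and 1.06 (WT) and 47.8, 18.3 and 65.7 (KO). Both genes were thus high in the same KO libraries, replicates 1 and 3. The KO value of 47.8 carries a failed quantification status in the authors' table, with an upper confidence bound of 2.68 below the value itself. With that entry left missing, the joint log2 change was 4.17 (limma adjusted p = 0.000927). Fitted on non-TFH libraries alone, the log2 changes were 3.98 for Hspa1a (SE 0.49, adjusted p = 0.00193) and 4.03 for Hspa1b (SE 0.48, adjusted p = 0.00177). Of the 50-base windows of the Hspa1a transcript in GENCODE M21, 58.8% also occur in Hspa1b, so the split of fragments between the pair is uncertain and their sum is the firmer value.

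Dnajb1 encodes the HSP40 J-domain protein that delivers substrates to HSP70 and stimulates its ATPase. Its levels were 24.3, 29.8 and 37.3 in WT and 58.4, 63.2 and 68.9 in KO non-TFH libraries. The groups did not overlap, and the log2 change was 1.05 (SE 0.18, limma adjusted p = 0.00117). Dnajb1 and the Hspa1a and Hspa1b pair kept their calls in all alternatives run for this comparison. Hsp90aa1, the stress-inducible cytosolic HSP90, was at 96.6, 128 and 87.4 in WT and 193, 147 and 219 in KO libraries (log2 change 0.83, SE 0.22, limma adjusted p = 0.0171). It passed in 18 of 23 alternatives, and missed the threshold without WT replicate 1 or 3 or without KO replicate 1 or 3, at changes of 0.71 to 0.80.

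Hspa5, which encodes the ER HSP70 called BiP, and Hspd1 passed with smaller changes. Hspa5 was at 141, 150 and 131 in WT and 240, 166 and 168 in KO libraries (log2 change 0.42, SE 0.13, limma adjusted p = 0.038). Replicate 1 of the KO libraries was the high one, and without it the change was 0.25 (adjusted p = 0.105). Hspd1 was at 63.1, 74.9 and 66.6 in WT and 87.4, 76.8 and 102 in KO libraries (log2 change 0.37, SE 0.11, limma adjusted p = 0.0393). Both calls were close to the threshold, with 12 and 13 of 23 alternatives past it. Hspd1 missed it without WT replicate 1 or 3 or KO replicate 1 or 3, and Hspa5 without any 1 of the WT replicates, KO replicate 1 or KO TFH replicate 2 or 3. Without WT replicate 1, WT replicate 3 or KO replicate 1, the count of higher values was 2 in place of 5, and without KO replicate 3 it was 3.

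The remaining members did not pass. Hspa8, which folds newly made proteins and uncoats clathrin vesicles, was at 1050, 795 and 1152 in KO libraries, and its change was 0.37 (SE 0.14, limma adjusted p = 0.0904). Hsph1, an HSP110 that acts as a nucleotide exchange factor for HSP70, spanned 21.3 to 44.5 (WT) and 29.8 to 59.8 (KO). Hsp90ab1 spanned 496 to 697 (WT) and 547 to 739 (KO). Hspe1 spanned 106 to 119 (WT) and 97.8 to 129 (KO). The groups overlapped for all 4 of these genes. Hspd1 and Hspe1, whose promoter windows share the stretch shown above, thus differed in their call here. The difference between their changes was not tested by the model.

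In TFH cells the inducible HSP70 pair was lower in KO than in WT mice, by 3.90-fold of the means, and the mitochondrial chaperonin Hspd1 was higher by 1.5-fold. These were 2 of the 9 values. Among all tested genes, 15.8% were called higher and 15.1% lower, 30.9% in all. With only 9 values, no difference from that share is read from the count of members. The median log2 change was 0.01 over the 9 values and 0.04 over all tested genes.

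The pair was at 134, 99.1 and 146 in WT libraries. The KO libraries had 55.5, 18.1 and 23.6. The groups did not overlap, and KO replicate 1 lay highest among the KO libraries. The log2 change was -2.07 (SE 0.50, limma adjusted p = 0.0111). Hspd1 was at 108, 104 and 109 in WT and at 178, 153 and 149 in KO libraries, again without overlap. Its log2 change was 0.57 (SE 0.11, limma adjusted p = 0.00273). Each of both calls passed in 21 of 22 alternatives and missed the threshold with limma's array weights, at adjusted p of 0.102 and 0.0543.

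Hspe1, the partner of Hspd1, was at 161, 128 and 140 in WT and 175, 169 and 178 in KO TFH libraries, and did not pass (log2 change 0.29, SE 0.12, limma adjusted p = 0.0789). Hspa5 was at 493, 566 and 476 in WT and 391, 402 and 407 in KO libraries, without overlap, and did not pass (log2 change -0.35, SE 0.13, limma adjusted p = 0.0598). Hsph1 spanned 65.4 to 67.6 (WT) and 72.6 to 88.5 (KO) (log2 change 0.26, limma adjusted p = 0.506). Counting separation alone, 3 of the 9 values were higher in every KO than in every WT library and 2 were lower, against 19.9% and 17.7% of all genes with values in both groups. Hspa8, Hsp90ab1, Hsp90aa1 and Dnajb1 had log2 changes of 0.07, 0.01, -0.26 and -0.27 that did not pass, and their groups overlapped.

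**Figure D2:**
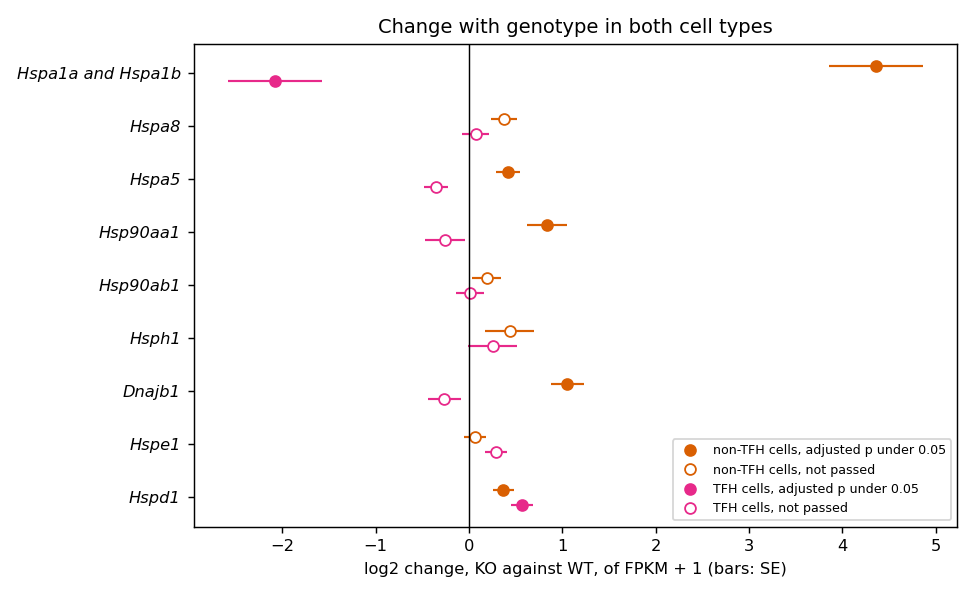
log2 change of KO against WT (of scaled FPKM + 1) for the 9 values in non-TFH and TFH cells, with bars of 1 SE; filled points have a limma adjusted p under 0.05. Hspa1a and Hspa1b lie at 4.36 in non-TFH and -2.07 in TFH cells, and Hspd1 is above 0 in both.

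Whether the genotype change depended on the cell type was tested as an interaction, the TFH change minus the non-TFH change. It passed below 0 for 4 of the 9 values and above 0 for none. Of all tested genes 17.5% passed, 10.6% below 0 and 6.87% above. The 4 were the HSP70 pair (-6.43, SE 0.71, limma adjusted p = 0.000248), Dnajb1 (-1.32, SE 0.25, adjusted p = 0.00355), Hspa5 (-0.77, SE 0.18, adjusted p = 0.0125) and Hsp90aa1 (-1.09, SE 0.30, adjusted p = 0.0293). Each of these was higher in KO non-TFH cells, while in KO TFH cells the pair was lower and the other three had changes that did not pass. The Hsp90aa1 interaction passed in 11 of 22 alternatives, and in 4 of the 12 that left out 1 library each. Hspd1 was called higher in KO cells of both kinds, and its interaction of 0.20 (SE 0.16, adjusted p = 0.450) was not past the threshold.

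Other genes that moved with these groups are given beside the result. The 18 immediate early genes, such as Fos, Junb and Nr4a1, respond within minutes to stimulation and to tissue dissociation. In non-TFH cells 7 of 18 were called higher in KO mice and none lower (median log2 change 1.19). In TFH cells 2 were called higher and 11 lower (median -1.39), and the interaction passed below 0 for 14 of 18. Of all tested genes, 11.8% were called higher and 8.57% lower in non-TFH cells (median 0.03). In TFH cells 15.8% were higher and 15.1% lower (median 0.04), and the interaction passed below 0 for 10.6%. The summed level of the 17 with a value in all libraries ran from 757 to 917 (WT) and 1116 to 3424 (KO) in non-TFH libraries, and from 2464 to 2990 (WT) and 909 to 1020 (KO) in TFH libraries. Within KO non-TFH cells the orders differed. Fos was at 778, 232 and 132 in replicates 1 to 3, and the HSP70 pair was highest in replicate 3. KO non-TFH replicate 3 thus had the lowest immediate early sum of its group and the highest HSP70 level. Its sum of 1116 was above the highest WT non-TFH sum of 917, and its HSP70 level of 117 was above the highest WT level of 3.29. The part of stimulation or handling of the cells in the HSP70 levels was not tested.

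**Figure D3:**
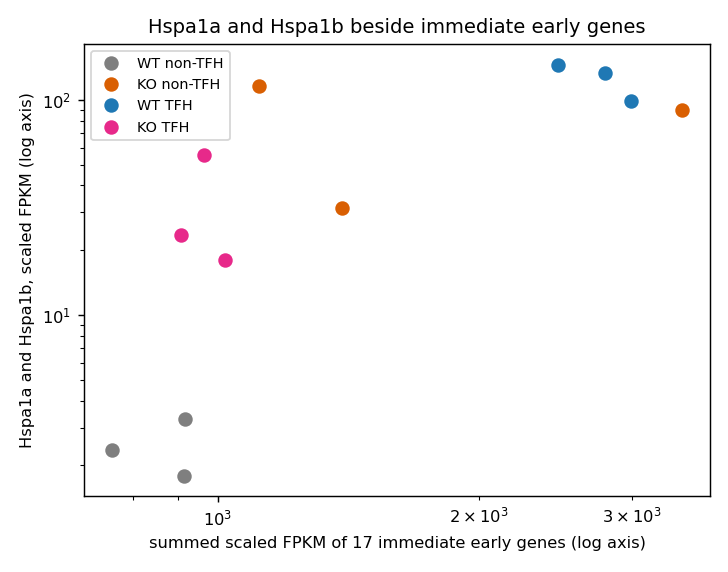
Scaled FPKM of Hspa1a and Hspa1b (vertical, log axis) against the summed scaled FPKM of 17 immediate early genes (horizontal, log axis) in 12 libraries, coloured by group. WT TFH libraries are high on both axes and WT non-TFH libraries low on both, and KO non-TFH replicate 3 combines 117 with a sum of 1116. KO TFH libraries have sums of 909 to 1020, beside 757 to 917 in WT non-TFH libraries. Their Hspa1a and Hspa1b levels are 18.1 to 55.5, against 1.79 to 3.29 in WT non-TFH libraries.

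Markers of other cells were summed in the same way. Macrophage and monocyte markers (10 genes with a value in all libraries) summed to 1162 to 2086 in WT TFH and 186 to 251 in KO TFH libraries. B cell markers (7 genes) summed to 63.7 to 73.5 in WT TFH and 37.1 to 42.0 in KO TFH libraries. In non-TFH libraries, where the HSP70 pair differed most between genotypes, macrophage markers summed to 13.2 to 22.6 (WT) and 27.6 to 39.9 (KO). B cell markers summed there to 1.21 to 2.86 (WT) and 2.29 to 2.68 (KO). Csf1r, one of the macrophage and monocyte markers, was at 1.71 to 3.80 in WT and 4.94 to 6.96 in KO non-TFH libraries. Plasma cell markers (7 genes) summed to 20.7 to 21.2 in WT non-TFH, 49.1 to 67.6 in their KO counterparts, 51.3 to 98.5 in WT TFH and 88.5 to 120 in KO TFH libraries. Most of this plasma cell sum was Xbp1 in every library. Xbp1 was at 16.5 to 17.0 in WT non-TFH, 26.6 to 34.6 in KO non-TFH, 32.4 to 66.1 in WT TFH and 54.8 to 82.7 in KO TFH libraries. Of the other plasma cell markers, Jchain was at 0.693 to 1.99 in WT and 11 to 22.2 in KO non-TFH libraries. Dendritic cell markers (6 genes) summed to 20.6 to 30.1 in WT TFH, 6.01 to 12.4 in KO TFH and at most 3.46 in non-TFH libraries. Neutrophil markers (4 genes) reached 120 in WT non-TFH replicate 3 and were at 51.6 or below in the other libraries. The part of these cells in the chaperone levels was not tested.

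All 9 values were higher in TFH than in non-TFH cells of WT mice. The inducible HSP70 pair differed by 50.8-fold of the means, Hspa5 by 3.63-fold, Hsp90aa1 by 2.99-fold, Hsph1 by 2.15-fold and Hspa8 by 2.14-fold. This comparison shares its WT libraries with both genotype comparisons. In it, 67.6% of all tested genes were called, 35.3% higher and 32.3% lower. Of the 9 values, 8 were higher in every TFH than in every non-TFH library, where 37.2% of all genes were separated upward and 34.5% downward. The median log2 change was 1.11 over the 9 values and 0.05 over all tested genes. Without scaling between libraries, the median of all genes was 0.37 and 64.6% of the calls were higher, against 52.3% with scaling. All 9 values were called higher either way.

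The log2 changes were 5.19 for the pair (SE 0.50, limma adjusted p = 7.53e-06) and 1.85 for Hspa5 (SE 0.13, adjusted p = 1.58e-07). They were 1.55 for Hsp90aa1, 1.14 for Hsph1, 1.11 for Hspa8, 0.99 for Dnajb1 and 0.65 for Hspd1. Hsp90ab1 (0.42, SE 0.15, adjusted p = 0.029) and Hspe1 (0.35, SE 0.12, adjusted p = 0.0184) had the smallest changes. Of the 9, Hsp90ab1 alone had overlapping groups. Both calls depended on single libraries: without WT TFH replicate 1, WT non-TFH replicate 1 or WT non-TFH replicate 3, neither passed. With quantile normalization the Hspe1 change was -0.04.

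In KO mice, 5 of the 9 values were higher in TFH cells and none was called lower, where 67.2% of all tested genes were called, 33.5% higher and 33.6% lower. The TFH libraries lay above all non-TFH libraries for 6 values and below for none, where 36.9% of all genes were separated upward and 36.5% downward. This comparison shares its KO libraries with both genotype comparisons. The median log2 change was 0.57 over the 9 values and 0.02 over all tested genes. The 5 were Hspa5 (1.08), Hsph1 (0.96), Hspd1 (0.85), Hspa8 (0.81) and Hspe1 (0.57). The KO levels of the HSP70 pair overlapped between both cell types, and its change was -1.24 (SE 0.50, limma adjusted p = 0.0513). It was called lower in 6 of 23 alternatives, of which quantile normalization gave -1.36 (adjusted p = 0.0344). Without KO non-TFH replicate 2 it was -1.79 (adjusted p = 0.00276), and without KO TFH replicate 1 it was -1.70 (adjusted p = 0.0105). Dnajb1 (-0.33, adjusted p = 0.119), Hsp90aa1 (0.46, adjusted p = 0.0776) and Hsp90ab1 (0.24, adjusted p = 0.183) did not pass. Without scaling, 60.4% of all calls were higher, against 49.9% with it, and 7 members were called higher. With quantile normalization 3 were called higher and 2 lower, and Hsp90aa1 was at -0.13.

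By mean level, the 4 groups ran in different orders. Hspa5 ran from WT TFH down through KO TFH and KO non-TFH to WT non-TFH, and no 2 neighbouring groups overlapped. Hspd1 ran from KO TFH through WT TFH and KO non-TFH to WT non-TFH, also without overlap between neighbours. For the HSP70 pair the order went from WT TFH to KO non-TFH, then KO TFH and last WT non-TFH, and only the lowest group was apart from its neighbour. Dnajb1 was highest in KO non-TFH cells, overlapping with WT TFH cells, and its WT non-TFH levels alone lay apart. Hsp90ab1 had overlapping groups at every step.

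Ratios within a library do not depend on the scaling between libraries. The ratio of the inducible to the constitutive cytosolic HSP90, Hsp90aa1 over Hsp90ab1, was 0.184, 0.184 and 0.176 in WT non-TFH and 0.289, 0.268 and 0.297 in KO non-TFH libraries. It was 0.397, 0.318 and 0.511 in WT TFH and 0.334, 0.334 and 0.328 in KO TFH libraries. The WT and KO non-TFH ratios did not overlap, while the WT TFH ratios spanned those of KO TFH cells. The inducible HSP70 pair stood at 0.0755 ± 0.032 of Hspa8 in KO non-TFH and 0.0763 ± 0.0122 in WT TFH libraries (SD, n = 3 each). It stood at 0.0187 ± 0.0118 in KO TFH and 0.00329 ± 0.0012 in WT non-TFH libraries. Hspd1 over Hspe1 was 0.611 ± 0.0295 in WT non-TFH, 0.756 ± 0.0526 in KO non-TFH, 0.757 ± 0.0731 in WT TFH and 0.920 ± 0.0913 in KO TFH libraries. The Hspd1 ratio did not overlap between groups in any of the 4 comparisons. Exact 2-sided permutation tests of 5 ratios in 4 comparisons, 20 in all, cannot go below p = 0.1 with 3 libraries against 3. After Benjamini-Hochberg adjustment the smallest value was 0.143, so none passed.

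**Figure D4:**
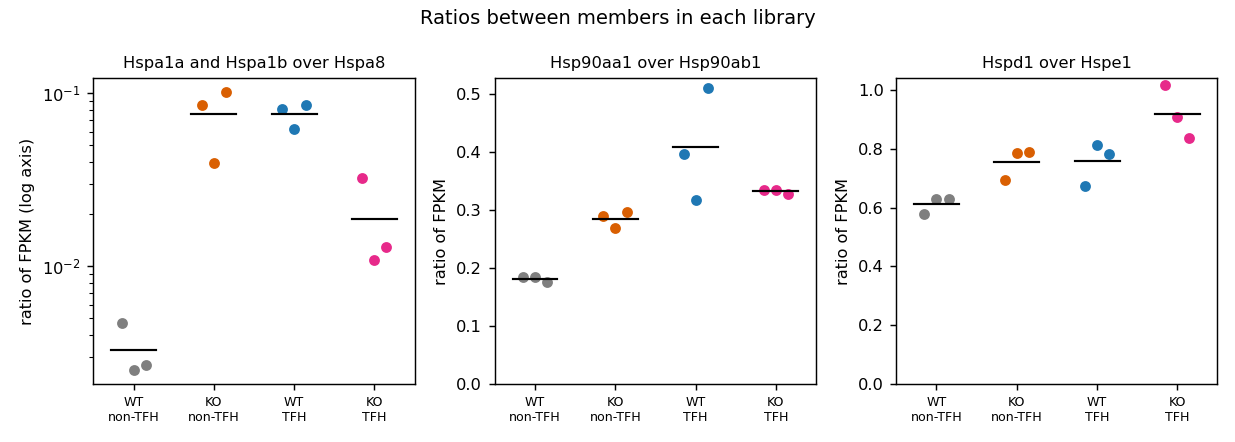
Ratios of FPKM between members in each of the 12 libraries, by group (points: libraries; bars: group means; the first axis is logarithmic, the others start at 0). The ratio of Hspa1a and Hspa1b to Hspa8 is near 0.076 in both KO non-TFH and WT TFH cells, and Hsp90aa1 over Hsp90ab1 is lowest in WT non-TFH cells.

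Some levels include fragments that could come from related sequences. Of the 50-base windows of each transcript, 73.2% in Hspa8, 58.5% in Hsp90aa1, 44.8% in Hspd1 and 36.1% in Hspe1 occur also in transcripts of other genes in GENCODE M21. Most of those for Hspa8, Hsp90aa1 and Hspd1 are in processed pseudogenes such as Gm15459, Gm12346 and Hspd1-ps3. Hspa5 and Hsph1 shared none, Dnajb1 0.407% and Hsp90ab1 4.49%. How the authors' counting split such fragments is not given in the sources used here.

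Genes with the pattern most like a member were chosen by the smallest root mean square (RMS) difference of log2 values centred on their mean, over 12 libraries and 10069 genes. For the HSP70 pair these were Ccr8 (RMS 0.73) and Klrg1 (0.95), where the pair's own RMS about its mean was 2.05. For Hsph1 they were Stip1 (0.14), the HOP cochaperone that links HSP70 to HSP90, and Hspa8 (0.19). For Hspe1 they were Ilf2 (0.09) and Cct5 (0.11), a subunit of the cytosolic chaperonin. For Hspa5 they were Tspo (0.16) and Twsg1 (0.19), and for Dnajb1 Adap1 (0.18) and Kiz (0.20). Those of Hspa8 were Ddost (0.11) and a joint value of Fancg and Vcp (0.14). Hsp90aa1 had a joint value of Ddx24, Ifi27l2a and Ifi27l2b (0.19) and Usp6nl (0.25). Hsp90ab1 had Adam17 (0.13) and Hk1 (0.13). Hspd1 had a joint value of Glrx3 and Gm12669 (0.11) and Nsf (0.12).

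Wider chaperone lists were counted in the same comparisons. By genotype, 11.8% of all tested genes were called higher and 8.57% lower in non-TFH cells, and 15.8% and 15.1% in TFH cells. By cell type these shares were 35.3% and 32.3% in WT mice, and 33.5% and 33.6% in KO mice. The interaction passed above 0 for 6.87% and below 0 for 10.6% of all tested genes. The cytosolic chaperonin TRiC, a ring of 8 subunit types that folds actin and tubulin, had 6 of 8 genes higher in KO than in WT TFH cells and none lower (median log2 change 0.40). Cct7 changed by 0.53 (SE 0.12, limma adjusted p = 0.00559) and Cct2 by 0.42 (SE 0.07, adjusted p = 0.00138). In non-TFH cells none of the 8 was called in either direction (median 0.09). By cell type, 6 were higher and 1 lower in WT, and 7 higher and none lower in KO TFH cells. The interaction passed above 0 for 2 of the 8. The one lower in WT TFH cells was Cct2 (-0.49). Prefoldin, which hands substrates to TRiC, had none of 5 genes called by genotype, and 4 and 3 of 5 higher in TFH cells of WT and KO mice.

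Among 9 other HSP70 and HSP110 genes, 3 were higher in KO TFH cells and 1 in KO non-TFH cells, and none was lower. Hspa4l, a relative of Hsph1, was higher in KO cells of both kinds, by 1.04 in TFH (SE 0.22, limma adjusted p = 0.00371) and 1.16 in non-TFH cells (SE 0.22, adjusted p = 0.00255). Its levels were 32.7 ± 2.16 and 15.8 ± 5.31 in KO and WT TFH cells, and 15.7 ± 3.01 and 6.48 ± 1.46 in KO and WT non-TFH cells (SD, n = 3 each). Hyou1, the ER relative of HSP110, was lower in TFH cells by 1.29 in both genotypes (SE 0.13), opposite to Hspa5. The other HSP90 genes, Hsp90b1 of the ER and Trap1 of mitochondria, were not called by genotype in either cell type. In TFH cells Hsp90b1 was higher by 0.35 in WT and 0.28 in KO mice, and Trap1 was lower, at -0.52 and -0.59. With quantile normalization the Hsp90b1 changes were -0.08 and -0.24.

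Of 19 J-domain genes other than Dnajb1, 4 were higher and none lower in KO non-TFH cells. In KO TFH cells 2 were higher and 4 lower. Counted in either direction, these were near the shares of all tested genes called, 20.4% in non-TFH and 30.9% in TFH cells. Dnaja1, an HSP40 of the cytosol, rose by 0.95 in KO non-TFH cells (SE 0.21, limma adjusted p = 0.00681) and by 0.70 in KO TFH cells (SE 0.21, adjusted p = 0.0254). The latter call was lost when any 1 of 4 TFH libraries was left out (WT replicate 1 or 2, KO replicate 1 or 3), at changes of 0.59 to 0.69. Dnajb4, a close relative of Dnajb1, was at 7.42 ± 0.705 in WT and 18.9 ± 5.49 in KO non-TFH cells, and at 6.78 ± 2.36 in WT and 2.37 ± 1.5 in KO TFH cells (SD, n = 3 each). Its log2 changes were 1.21 (adjusted p = 0.0330) and -1.28 (adjusted p = 0.0183), and its interaction was -2.49 (adjusted p = 0.00537). Both genotype calls of Dnajb4 depended on single libraries. Without KO TFH replicate 3 the TFH change was -0.84 (adjusted p = 0.0542), and that call was also lost without WT TFH replicate 2 or 3. The non-TFH call was lost when any 1 of the WT non-TFH replicates or KO non-TFH replicate 1 or 3 was left out.

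Of 23 genes of ER folding and the unfolded protein response, 7 were higher and none lower in KO non-TFH cells (median 0.23), and 2 were higher and 5 lower in KO TFH cells (median -0.01). The share called in TFH cells was near the 30.9% of all tested genes. In non-TFH cells 11.8% of all tested genes were called higher and 8.57% lower. The interaction passed below 0 for 6 of 23 and above 0 for none. Sdf2l1, an ER cochaperone of BiP, was higher in KO non-TFH cells by 1.19 (SE 0.17, limma adjusted p = 0.000280), from 4.25 ± 0.368 to 11.3 ± 3.31 (SD, n = 3 each). Dnajb9, an ER J-domain protein that holds the stress sensor IRE1 in check, was lower in KO TFH cells by 1.05 (SE 0.24, adjusted p = 0.00577). Ern1, which encodes that sensor, was also lower, at -1.21 (SE 0.22, adjusted p = 0.00192). Ern1 levels were low, at 0.821 ± 0.46 in KO and 3.17 ± 0.682 in WT TFH cells (SD, n = 3 each). The 2 higher in KO TFH cells were Creld2 (0.52, adjusted p = 0.0276) and Atf6 (0.47, adjusted p = 0.0358). With 1 library left out, these calls held in 9 and 1 of 12 fits. Atf6 was also higher in KO non-TFH cells, by 0.99 (adjusted p = 0.000605). Plasma cell markers, which were higher in KO than in WT non-TFH libraries as given above, include Xbp1, a gene of this list.

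Cochaperones of HSP70 and HSP90 had 4 of 19 genes higher and 1 lower in KO TFH cells, and none called in KO non-TFH cells. Of all tested genes, 30.9% were called by genotype in TFH and 20.4% in non-TFH cells. Fkbp5, a cochaperone of HSP90 and of steroid receptors, was higher by 1.22 in KO TFH cells (SE 0.25, limma adjusted p = 0.00336). Cdc37, which brings kinases to HSP90, was lower there, at -0.55 (SE 0.17, adjusted p = 0.0264). Without KO TFH replicate 3 its change was -0.34 (adjusted p = 0.0569), and the call was also lost without WT TFH replicate 1 or 3. Of 9 genes of mitochondrial protein quality control, none was called in KO TFH cells and Grpel1 alone was higher in KO non-TFH cells (1.19, SE 0.36, adjusted p = 0.0403). The Grpel1 call held in 3 of the 12 fits that left out 1 library each. Of 3 tested genes listed by their Hspb symbols, Hspb11 was higher (1.23) and Hspb1 lower (-1.22) in KO TFH cells. Levels of Hspb1 were low, at 0.150 ± 0.196 in KO against 1.68 ± 0.353 in WT TFH cells (SD, n = 3 each).

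Of 4 heat shock factor genes, the 2 tested, Hsf1 and Hsf2, did not pass by genotype. Hsf4 and Hsf5 did not pass the filter on low values. Hsf1 was at 35.6 to 41.1 in WT and 27.5 to 31.4 in KO non-TFH libraries, without overlap. Its log2 change there was -0.36 (SE 0.16, limma adjusted p = 0.152). In TFH cells its change was -0.09 (SE 0.16, adjusted p = 0.720). Hsf2 was at 2.82 to 7.76 in WT and 1.08 to 2.63 in KO TFH libraries, also without overlap (-0.83, SE 0.30, adjusted p = 0.0547). In KO mice its TFH level was below its non-TFH level by 1.69 (adjusted p = 0.000344).

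**Figure D5:**
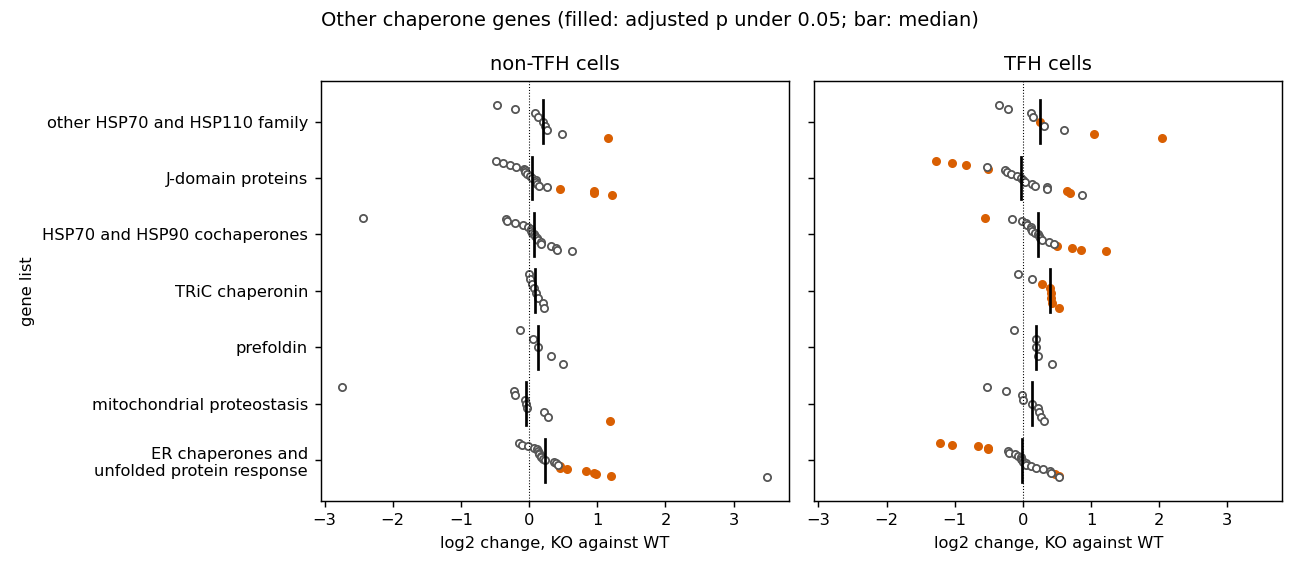
log2 change of KO against WT for each tested gene of 7 other chaperone lists in non-TFH cells (left) and TFH cells (right); filled points have a limma adjusted p under 0.05 and bars mark each list's median. For TRiC the medians are 0.09 in non-TFH and 0.40 in TFH cells.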

How the data were processed

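Poly(A)-selected, stranded RNA libraries were sequenced (12 in all). The authors deposited 1 gene table per library in FPKM, with confidence bounds and a status per entry. Per the submitters' processing notes, Cufflinks, Cuffdiff, TopHat, TopHat2, Bowtie, Bowtie2, cutadapt, FastQC and the build mm10 were used, named without versions or settings. Because the tables hold no counts, depth was estimated from FPKM and bounds at unnamed loci longer than 1500 bp (11.9 to 14.0 M fragments in TFH and 13.6 to 15.5 M in non-TFH libraries), and no counting intervals were drawn.

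Symbols with their own entry in at least 2 libraries of each group were used alone (22427), and others sharing an entry were summed (796). WT non-TFH replicate 1 lacks most genes of chromosomes X and Y; all members are autosomal. FPKM were scaled by the median ratio over the 7161 genes never below 1 FPKM (factors from 0.852 to 1.13). log2(FPKM + 1) of genes reaching 1 FPKM in 3 or more libraries was fitted with limma 3.58.1 (R 4.3.3; all 12 libraries, group means, trend, robust), with Benjamini-Hochberg adjustment over 11103 genes and a threshold of 0.05. The pseudocount understates changes of low genes, so folds are ratios of mean scaled FPKM. The script was tested on simulated data.

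Members and lists were chosen with earlier results of these data known. All members are named; of other lists, per comparison, up to 2 called genes in each direction with the largest change and values in every library, besides markers and genes counted or set beside a member. Alternatives covered scaling, pseudocount, filter, moderation, weights, blocks, samples fitted, each library left out and, added after seeing the data, failed entries left missing and non-TFH libraries alone. Promoters are from RefSeq, GRCm38.p6.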

Additional observations from a re-analysis of the deposited data

Results flagged for a closer look

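By the interaction term of the limma fit to all 12 libraries, 4 values changed with genotype differently in the 2 cell types. For Hspa1a and Hspa1b the change in TFH minus that in non-TFH cells was -6.43 on the log2 scale. For Dnajb1 it was -1.32, for Hsp90aa1 -1.09 and for Hspa5 -0.77. For the first, the groups of each cell type did not overlap and the directions were opposite.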

How the results depend on the processing

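Deviations from group means correlated between same-numbered libraries at -0.03 to 0.06 over 10069 genes, WT against KO pairs included. Between the cell types of a genotype they correlated at -0.03 to 0.03. Deviations from means of 3 libraries cannot decide whether same-numbered libraries share a mouse, and the labels do not say. With the replicate block, 2, 4, 9, 6 and 4 members were called (by genotype in TFH and non-TFH cells, by cell type in WT and KO mice, and in the interaction), against 2, 5, 9, 5 and 4 without it. The block by mouse gave 9, 6 and 3 in the last 3. The call gained in KO mice was the HSP70 pair, lower in TFH cells at -1.24 (limma adjusted p = 0.0186 with the replicate block and 0.0125 with the block by mouse).

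Of the members' log2 changes under alternatives, 934 kept direction and side of the threshold, 52 lost the call, 21 gained it and 11 changed sign. Under quantile normalization these were Hspa8 (-0.031) and Hsp90ab1 (-0.41) by genotype in TFH cells, Hspe1 (-0.010) in non-TFH cells, Hspe1 (-0.044) by cell type in WT and Hsp90aa1 (-0.13) in KO mice. By cell type, Hsp90b1 (-0.081 in WT, -0.24 in KO) and Dnaja1 (-0.11 in KO) also changed sign. With single libraries left out, Hsp90ab1 by genotype in TFH cells ranged from -0.076 to 0.118, Hspe1 in non-TFH cells from -0.0082 to 0.190 and the Hsph1 interaction from -0.465 to 0.0954.

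Members called by genotype in TFH cells numbered 0 with array weights. In non-TFH cells they numbered 2 with no filter on low values, 3 with only the compared groups, 3 with no trend or robust moderation, and 2 to 6 with single libraries left out. In the interaction 2 were called with no filter. Of all tested genes, 3435 changed by genotype in TFH cells, and 2175 with no filter, 2174 with only the compared groups and 2263 with array weights. In non-TFH cells 2264 changed, and 1451, 3892 and 4123 in the same order. In the interaction 1939 changed, and 1071 with no filter. Apart from the filter, which changes the genes tested, and the samples fitted, the cause was not tested. The tables hold no counts, so the limit that depth sets was not computed.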
